A study of Arabidopsis thaliana with 8 samples.

Results

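The lines described here are Arabidopsis thaliana seedlings of the Ler background, set against seedlings of other backgrounds. They were grouped by their labels, with earlier results of these data known, and they make up 4 of the 8 arrays. RNA of whole seedlings was hybridised to Affymetrix arrays, which hold short oligonucleotide probes grouped into probe sets, with 1 signal intensity reported per probe set and array. All seedlings were 7 days old and had received no treatment.

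The Ler background is represented by a gibberellin-deficient mutant, whose defect is given as leaky, with 2 arrays, and by the accession Ler-0 (Ler below), with 2 arrays. The other backgrounds are represented by a de-etiolated mutant in the Columbia accession (Col), with 2 arrays, and by the accession Wassilewskija (Ws), with 2 arrays. The labels name neither the mutated gene nor the allele of either mutant. No Col wild type was among the arrays, so the de-etiolated mutation and the Col accession cannot be told apart. Each line is 1 seed stock, and nothing says that the 2 arrays of a line came from separate plantings, so p-values taken over arrays measure a spread that may be technical.

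Ler is a laboratory strain of Arabidopsis that descends from mutagenised Landsberg seed and carries the erecta mutation, which gives a compact plant. Accessions of Arabidopsis differ by single bases, by insertions and by the loss or gain of whole genes, and chemical defence genes such as those of glucosinolate side-chain modification are well-known places of such variation. The probes of this array were designed on the Col genome sequence, so a lower transcript level and a sequence difference under the probes give the same reading, and the 2 cannot be told apart here. Gibberellins are growth hormones that promote germination, stem elongation and cell expansion, and a mutant that makes less of them is a dwarf.

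Signals on the log2 scale correlated across probe sets at 0.945 to 0.956 between gibberellin-deficient and Ler arrays and at 0.961 to 0.963 between de-etiolated and Ws arrays. Between backgrounds the values ran from 0.935 to 0.960, and the 2 arrays of a line correlated at 0.965 to 0.971. Ler correlated with Ws at 0.952 to 0.960, a range that reaches above that of Ler with the gibberellin-deficient mutant. Probe sets are not independent replicates, and these values are a description. For actin and ubiquitin, the older controls that read the 3′ and 5′ ends of transcripts gave ratios that did not overlap between backgrounds. The older actin 3′/5′ ratio was 3.84 and 4.93 in gibberellin-deficient seedlings and 5.22 and 4.77 in Ler. It was 2.35 and 2.32 in de-etiolated seedlings and 2.26 and 1.90 in Ws. The 5′ probe set of that pair gave 260, 201, 188 and 191 in the Ler background, against 389, 454, 447 and 543 in the others. Its 3′ probe set overlapped. The older ubiquitin ratio ran the other way, with 0.826, 0.651, 0.671 and 0.627 in the Ler background, against 1.15, 1.42, 1.28 and 1.28 in the others. The newer actin controls lay between 1.16 and 1.497 on all arrays. Both ratios for GAPDH (glyceraldehyde-3-phosphate dehydrogenase) also overlapped between backgrounds. The newer ubiquitin ratio was 0.989, 0.929, 0.9425 and 0.790 in the Ler background, against 0.9858, 1.648, 1.828 and 1.436 in the others. It overlapped only through the first de-etiolated array. The newer ubiquitin 5′ probe set did not overlap, with 1398, 1405, 1325 and 1304 in the Ler background, against 1227, 1221, 1016 and 1035 in the others. Of 35 control probe sets above the low-signal limit of 24.2, under which the dimmest 40% of probe sets were left out, 5 did not overlap between backgrounds (14.9 percent of all probe sets tested did not), among them 3′ probe sets for the bacterial spike-ins BioC and BioDn, whose RNA does not come from the plant. The part of these shifts in the results below was not tested.

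The first question was how many probe sets differed between the Ler background and the others, and in how many of these both Ler lines stood together. In a limma fit over 13648 probe sets and all 8 arrays, with Benjamini-Hochberg adjustment and a threshold of 0.05, the mean of the Ler-background lines differed from the mean of the others for 2695 probe sets, 19.7 percent of those tested. Of these, 1330 were higher and 1365 lower in the Ler background, and 455 differed by at least 2-fold. That contrast can be called when only 1 of the lines moves. A probe set was therefore counted as set apart by background only when each Ler-background line differed from each other line in 1 direction, with all 4 contrasts called, and when the gibberellin-deficient mutant and Ler differed by less than the smallest of the 4. By this rule 361 probe sets were set apart, 2.65 percent of those tested. There were 165 higher in the Ler background, 1.21 percent, and 196 lower, 1.44 percent. A further 16 had all 4 contrasts called in 1 direction but lay further apart between the Ler-background lines than the limit allows.

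The single comparisons were unequal in size. The gibberellin-deficient mutant differed from Ws in 2456 probe sets (18 percent) and from the de-etiolated mutant in 2646 (19.4 percent). Ler differed from the de-etiolated mutant in 2164 (15.9 percent) and from Ws in 794 (5.82 percent), so the comparison of both wild types was the narrowest of the 4. Within the Ler background 1464 probe sets (10.7 percent) differed between the mutant and Ler, and within the others 306 (2.24 percent) differed between the de-etiolated mutant and Ws. These comparisons share arrays, and their counts are set side by side without a test.

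**Figure D1:**
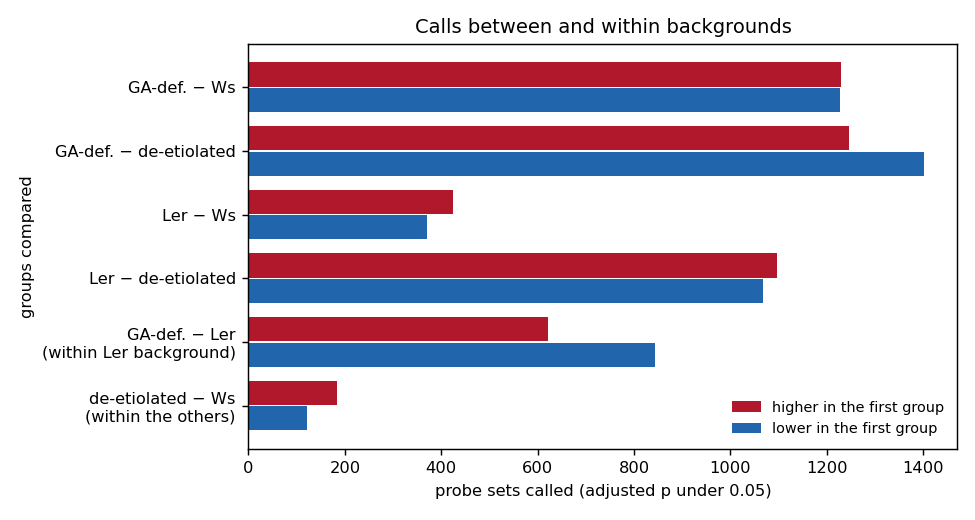
Number of probe sets called at an adjusted p under 0.05 (x axis) in each pair of lines (y axis), higher in the first line in red and lower in blue. The gibberellin-deficient mutant (GA-def.) had 2456 and 2646 calls against Ws and the de-etiolated mutant, Ler had 794 and 2164, and the de-etiolated mutant against Ws had 306.

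Most of the 361 differences were moderate. The median change between backgrounds was 1.29 on the log2 scale for those higher in the Ler background and -1.16 for those lower. The rule chose them for such differences. Over all probe sets tested the median size of the change, without its sign, was 0.20. The smallest of the 4 differences was at least 2-fold for 84 higher and 84 lower probe sets, at least 4-fold for 22 and 15, and at least 8-fold for 7 and 7. All 361 had no overlap between the 4 Ler-background arrays and the other 4, which the rule that chose them all but requires. Of all probe sets tested, 2038 had no overlap, 14.9 percent. At the limit of the rule, the iron-sulfur scaffold gene ISU1 was just inside, with signals of 468, 461, 529 and 621 in the Ler background, against 183, 359, 281 and 275 in the others. AGO7, which encodes an ARGONAUTE protein of small-RNA pathways, was just outside with 43.1, 21.9, 37.2 and 47.2 in the Ler background, against 94.2, 74.0, 94.8 and 81.4 in the others.

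**Figure D2:**
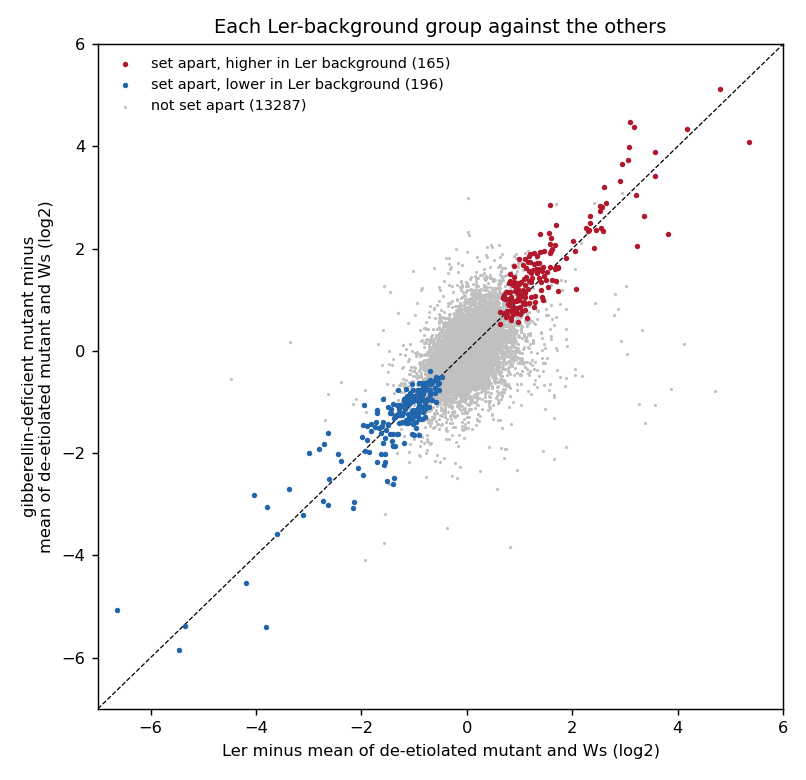
Difference of each Ler-background line from the mean of the de-etiolated mutant and Ws on the log2 scale, for Ler (x axis) and the gibberellin-deficient mutant (y axis), 1 point per probe set tested. The 165 probe sets set apart as higher (red) and the 196 set apart as lower (blue) lie along the dashed line of equal difference, as the rule that chose them requires.

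Replication over lines is the narrower test, since background was carried by 2 lines on each side. With the 4 line means taken as 2 against 2 in limma, 62 probe sets (0.454 percent) were called, 32 higher and 30 lower in the Ler background, and all 62 were among the 361. In that fit 1638 probe sets had an unadjusted p under 0.05. With line as a random block in a fit over 8 arrays, 490 were called, of which 352 were among the 361. The calls over arrays therefore describe these 4 lines, and 62 is the count that treats lines as the replicates.

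Among the genes higher in the Ler background, AOP3 had the largest smallest-of-4 difference, 3.79 on the log2 scale. It encodes a 2-oxoglutarate-dependent dioxygenase that modifies glucosinolate side chains. Its signal was 162 and 151 in gibberellin-deficient seedlings and 399 and 366 in Ler, against 10.3 and 7.13 in de-etiolated seedlings and 1.21 and 11.3 in Ws. All 4 Ler-background arrays lay above the others. The signal in Ler exceeded that in the mutant, but that difference was not called (limma adjusted p = 0.0748). On the scale of log2(signal + 2.96) the difference between backgrounds was 4.72 (SE 0.29, limma adjusted p = 6.98e-07) over arrays, and its adjusted p was 0.0222 over lines. Every fold or log2 difference below is on that scale, which understates changes of dim probe sets.

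JAL33, a jacalin-related lectin, had signals of 854 and 793 in gibberellin-deficient seedlings and 648 and 683 in Ler, against 55.0 and 45.6 in de-etiolated seedlings and 60.4 and 52.6 in Ws. The 2 groups were far apart and arrays within each side were close, with a 13.2-fold difference (log2 3.73, SE 0.11, limma adjusted p = 6.19e-10). Over lines the adjusted p was 0.0032. HTB11, a histone H2B gene, had 135, 186, 166 and 190 in the Ler background, against 14.2, 8.95, 9.07 and 18.4 in the others, an 11.3-fold difference. The carboxylesterase gene CXE20 had 56.0, 77.8, 64.6 and 54.8, against 18.1, 5.25, 11.95 and 8.30, a 5.03-fold difference. For both, neither Ler-background line stood above the other, since their arrays interleave.

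AT5G47980, on the list for the thalianol and marneral gene clusters, which make triterpenes in roots, had 662 and 607 in gibberellin-deficient seedlings and 253 and 297 in Ler, against 32.7 and 27.0 in de-etiolated seedlings and 29.8 and 22.9 in Ws. It was higher in both Ler-background lines and higher in the mutant than in Ler, by 1.20 on the log2 scale (limma adjusted p = 0.0018). AT2G21045 had the same order, with 373 and 542 in the mutant and 233 and 242 in Ler, against 22.1, 25.3, 34.5 and 22.5 in the others. Its background difference was 3.53 on the log2 scale (SE 0.16).

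The remaining 6 of the 12 higher genes, like AT2G21045, have no role in the annotation used here. AT2G40010 had 180, 130, 149 and 192 in the Ler background, against 16.2, 18.5, 16.0 and 13.0 in the others. AT1G73490 had 146, 190, 251 and 304, against 23.2, 34.4, 19.2 and 22.3. In both, the lowest Ler-background array was well above the highest of the others. AT4G33720 was less even, with 203, 146, 173 and 65.1, against 23.1, 13.5, 6.75 and 4.35. AT1G70880 had 95.2, 174, 86.8 and 80.7, against 15.1, 3.49, 15.3 and 16.6. AT4G26460 spread widely within Ler, where its arrays gave 127 and 35.5, beside 70.1 and 46.2 in the mutant and 9.22, 12.9, 8.12 and 6.26 in the others. AT3G47250 had 53.9 and 57.3 in the mutant and 116 and 144 in Ler, against 15.1, 8.70, 12.4 and 9.60 in the others, so the mutant lay nearer to the others than Ler did.

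**Figure D3:**
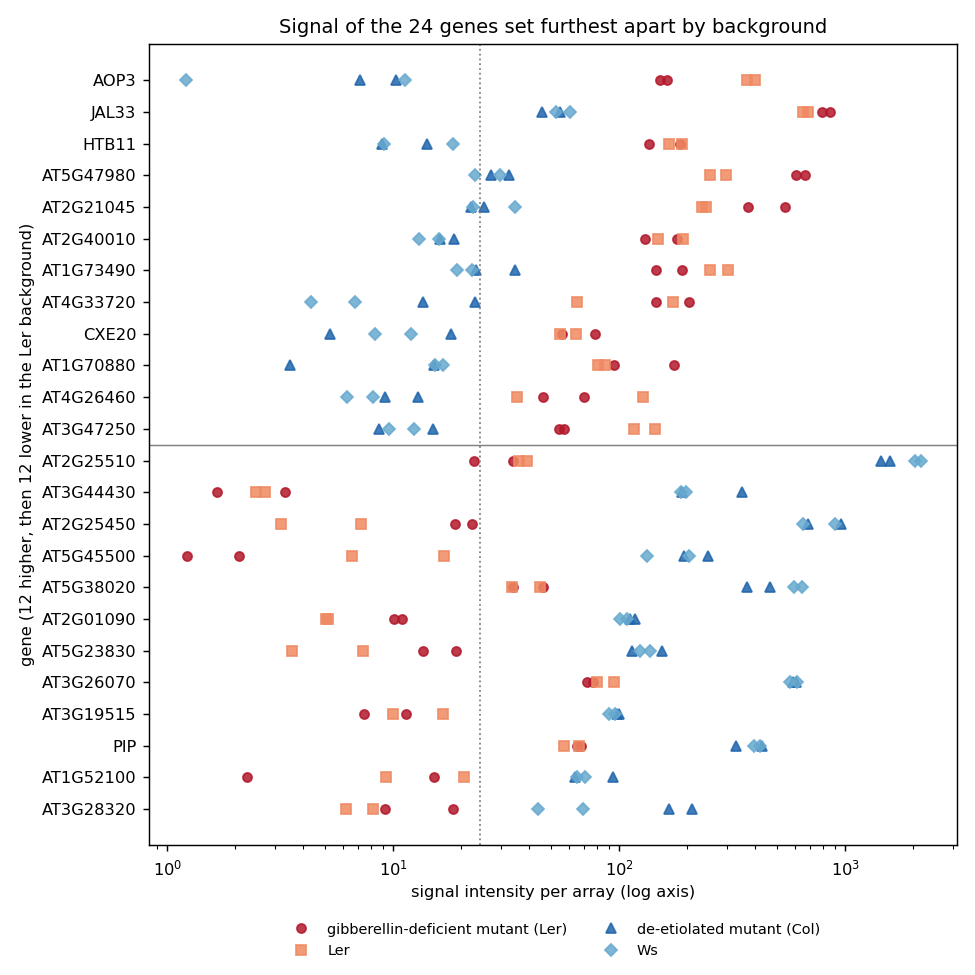
Signal intensity on each array (x axis, log scale) of the 12 genes higher and the 12 lower in the Ler background (y axis) with the largest smallest difference, with Ler-background arrays in red and orange and the others in blue. The dotted line is the low-signal limit of 24.2. Most of the lower genes do not reach it on Ler-background arrays, and most of the higher genes do not reach it on the other arrays.

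Among the genes lower in the Ler background, AT2G25510 came first by the smallest of the 4 differences, at -5.22 on the log2 scale, against -5.14 for AT3G44430 and -5.03 for AT2G25450. The signal of AT2G25510 was 22.7 and 33.8 in gibberellin-deficient seedlings and 39.1 and 36.2 in Ler, against 1442 and 1576 in de-etiolated seedlings and 2045 and 2158 in Ws. The 50.5-fold difference (log2 -5.66, SE 0.12, limma adjusted p = 5.05e-11) had an adjusted p of 0.0023 over lines. AT3G44430 had 3.33, 1.66, 2.70 and 2.48 in the Ler background, against 348, 190, 198 and 188 in the others (log2 -5.37, SE 0.21). AT2G25450 had 18.8 and 22.3 in the mutant and 7.20 and 3.20 in Ler, against 682, 957, 899 and 650 in the others, a 57.9-fold difference between backgrounds (log2 -5.86, SE 0.18). For AT3G44430 and AT2G25450 all 4 Ler-background arrays were below the low-signal limit of 24.2, so the size of these differences depends on the pseudocount.

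AT5G45500 had 2.07 and 1.23 in gibberellin-deficient seedlings and 16.8 and 6.54 in Ler, against 247 and 193 in de-etiolated seedlings and 133 and 204 in Ws. All 4 Ler-background arrays were below the low-signal limit, and no order of the Ler-background lines is read from them. The same holds for AT5G23830, with 18.9, 13.5, 7.34 and 3.56, against 114, 155, 138 and 124 in the others. AT2G01090 showed 10.1, 10.9, 5.05 and 5.14, against 117, 111, 100.8 and 108, with all 4 Ler-background arrays under 24.2. AT5G38020 had 46.1, 33.7, 33.7 and 44.5, against 367, 463, 645 and 596.

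Of the last 5, AT3G26070, whose probe set may also read a related gene, had 72.4, 76.9, 95.1 and 79.6 in the Ler background, against 589, 607, 567 and 611 in the others. AT3G19515 had 11.4, 7.41, 16.7 and 10.01, against 98.0, 100.3, 90.0 and 95.9. In both, the arrays of the others differed little among themselves. PIP, which encodes a proline iminopeptidase that removes N-terminal proline from peptides, had 67.6, 65.2, 66.5 and 56.9, against 327, 429, 419 and 393. The 5.88-fold difference of PIP (log2 -2.56, SE 0.12) had a limma adjusted p of 4.02e-08 over arrays and 0.0083 over lines. AT1G52100 was uneven within the Ler background, with 2.26, 15.2, 9.31 and 20.6, against 63.5, 94.1, 65.0 and 70.3. AT3G28320 differed also within the others, with 18.4, 9.25, 8.16 and 6.21 in the Ler background, against 166 and 209 in de-etiolated seedlings and 69.4 and 43.8 in Ws.

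Of these 24 genes, 21 were also called over lines. The other 3 were AT4G33720, AT3G47250 and AT3G28320, with limma adjusted p of 0.0638, 0.0760 and 0.1153. The 24 were picked on these arrays for wide gaps between line means, which the test over lines also reads. Their calls are not separate support.

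Some probe sets were at low signal throughout one background. For 20 of the 196 lower probe sets all 4 Ler-background arrays were below 24.2, and for 25 of the 165 higher ones all 4 other arrays were. Of these, 18 lower and 17 higher probe sets name 1 gene. Among the higher ones are AOP3, HTB11, AT2G40010, AT4G33720, CXE20, AT1G70880, AT4G26460 and AT3G47250 above. Among the lower ones are AT3G19515, AT1G52100 and AT3G28320 above, and LUL1, GSTU16 and NET4B below. The size of all these differences depends on the pseudocount. AT5G15420 is one that was low in the Ler background, with 19.4, 15.5, 16.4 and 18.8, against 79.2, 61.8, 74.7 and 90.5 in the others. AT5G48110, low in the others, had 64.8, 79.9, 39.2 and 63.5 in the Ler background, against 14.3, 15.8, 11.2 and 18.4. No detection calls were used, so a low signal is not a statement that a transcript was missing.

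The 35 genes with a symbol among those set apart, 17 higher and 18 lower, belong to many processes. With the 24 above they make 54 genes, of which 30 stayed set apart whichever array was left out. ISU1, CYP71, UGT85A2 and CEF stayed so in 1 of the 8 such fits, and SECE1 and CYB-1 in 2, while their contrast between backgrounds was called in all 8. Over lines, 3 of the 30 further genes were called, ALDH6B2, ACLA-2 and ccsA. Of these, ALDH6B2 and ACLA-2 stayed set apart in all 8 fits without 1 array, and ccsA in 3. The other 27 were not called over lines, so the folds of those 27 below rest on the tests over arrays. Genes of small-molecule metabolism were on both sides. ALDH6B2, a methylmalonate-semialdehyde dehydrogenase of branched-chain amino acid breakdown, had 351, 388, 403 and 366 in the Ler background, against 82.8, 116, 110 and 105 in the others, a 3.60-fold difference (log2 1.85, SE 0.12). ACLA-2, a subunit of ATP-citrate lyase that makes cytosolic acetyl-CoA, had 130, 160, 112 and 123, against 455, 511, 466 and 461, and was 3.58-fold lower. Arrays within each side lay close together for both genes. The allantoinase gene ALN, of purine breakdown, was 2.73-fold higher, and LigB, an aromatic ring-cleaving dioxygenase, was 1.93-fold higher. ALDH11A3, a non-phosphorylating glyceraldehyde-3-phosphate dehydrogenase, was 1.47-fold lower.

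Stress- and redox-related genes also lay on both sides. OSM34, an osmotin-like protein, had 212 and 234 in gibberellin-deficient seedlings and 167 and 103 in Ler, against 66.2, 33.8, 38.5 and 38.6 in the others, a 3.80-fold difference. DI21, a drought-induced gene, had 243 and 212 in the mutant and 168 and 175 in Ler, against 66.6 and 74.6 in de-etiolated seedlings and 39.6 and 36.5 in Ws. It was higher in both Ler-background lines, and it also differed between the de-etiolated mutant and Ws (limma adjusted p = 0.0191). Lower in the Ler background were the glutathione S-transferase gene GSTU16 by 2.49-fold, the methionine sulfoxide reductase gene MSRB5 by 2.40-fold, the glutaredoxin gene GRXC2 by 2.17-fold and the cytochrome b561 gene CYB-1 by 1.80-fold.

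Genes of the cytoskeleton, secretion and the cell wall followed. The actin gene ACT11 had 190, 204, 143 and 156 in the Ler background, against 62.8, 72.5, 69.1 and 55.8 in the others, a 2.58-fold difference, with the shift of the older actin controls given above beside it. NET4B, an actin-binding protein, was 2.37-fold lower. DER2.1, a derlin of the endoplasmic reticulum, had 224 and 235 in the mutant and 152 and 141 in Ler, against 63.9, 59.4, 49.7 and 62.5 in the others, and was also higher in the mutant than in Ler (limma adjusted p = 0.0303). The subtilisin-like protease gene SBT4.12 had 93.2 and 84.9 in the mutant and 54.9 and 40.1 in Ler, against 217, 183, 199 and 163 in the others. CSLC04, which makes the xyloglucan backbone, had 216 and 245 in the mutant and 318 and 331 in Ler, against 152, 135, 151 and 146 in the others. In SBT4.12 and CSLC04 the mutant lay between Ler and the others. The Sec24-like gene CEF, the tetraspanin gene TET3 and SAH7, of an allergen-related family, were 1.58, 1.70 and 1.58-fold lower.

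In signalling and gene regulation, LUL1, a ubiquitin ligase, had 22.6, 10.3, 14.3 and 10.7 in the Ler background, against 65.5, 51.6, 53.0 and 38.9 in the others. The transcriptional coactivator gene KELP had 22.3, 11.9, 33.8 and 16.5, against 63.4, 77.8, 62.1 and 68.9. Neither overlapped between backgrounds, although the 4 Ler-background arrays of KELP ran from 11.9 to 33.8. The peptide hormone gene RALFL33 and the protein phosphatase gene TOPP8 were 1.78-fold and 1.83-fold lower. CYP71, here a cyclophilin and not a cytochrome P450, was 1.83-fold higher. In organelles, SECE1, of the thylakoid protein translocase, was 1.88-fold higher, and ISU1 was 1.92-fold higher.

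The plastid-encoded ccsA, needed for cytochrome c assembly, had 391 and 716 in gibberellin-deficient seedlings and 963 and 440 in Ler, against 1526, 1878, 1643 and 1538 in the others. Of 68 plastid-encoded probe sets tested, 2 were called higher and 21 lower in the contrast of backgrounds, against 19.7 percent called of all tested. Their median was -0.19 on the log2 scale, against 0.01 over all tested. Of the 68, ccsA alone was set apart, beside 2.65 percent of all tested. Plastid transcripts carry no stable poly(A) tail. Of the 3′/5′ control ratios above, the older actin and ubiquitin ratios separated the backgrounds, in opposite directions. The rest overlapped, the newer ubiquitin ratio only through the first de-etiolated array. The part of the tail and of these ratios in this count was not tested.

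Of 16 listed genes of late anthocyanin synthesis, which makes red and purple flavonoid pigments, 5 could be measured, and all 5 were higher in the Ler background. They were called in the contrast of backgrounds, which called 19.7 percent of all tested, with a median of 2.13 on the log2 scale. Of the 5, 2 were set apart, beside 2.65 percent of all tested. DFR, the dihydroflavonol reductase that commits flavonoids to anthocyanin, had 409 and 453 in gibberellin-deficient seedlings and 272 and 532 in Ler, against 37.96 and 43.5 in de-etiolated seedlings and 125 and 137 in Ws. Both Ler-background lines overlapped each other and lay above Ws, which lay above the de-etiolated mutant (limma adjusted p = 0.0056 between these). AT4G14090, on the same list, had 268 and 284 in the mutant and 164 and 329 in Ler, against 21.0 and 15.3 in de-etiolated seedlings and 59.6 and 71.1 in Ws. The order of the lines was the same as for DFR.

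The other 3 genes of this list were not called against Ws in either Ler-background line. UF3GT, a glycosyltransferase that extends anthocyanin sugars, had 182, 160, 139 and 227 in the Ler background, against 8.84 and 37.0 in de-etiolated seedlings and 69.5 and 74.0 in Ws. Its limma adjusted p against Ws was 0.0652 in the gibberellin-deficient mutant and 0.1125 in Ler. AT5MAT, a malonyltransferase for anthocyanins, had 62.8, 58.6, 41.2 and 85.3, against 14.8 and 10.5 in de-etiolated seedlings and 30.6 and 31.9 in Ws. UGT78D2, a flavonoid glucosyltransferase, had 203, 213, 185 and 225, against 135, 127, 149 and 151, a small difference of 0.55 on the log2 scale (limma adjusted p = 0.0034 for backgrounds). In DFR the Ler-background difference was larger between the mutants than between the wild types, by 1.79 on the log2 scale (limma adjusted p = 0.0179), but that call was lost without any 1 of 4 arrays (both gibberellin-deficient arrays, the first de-etiolated and the second Ws array), without the low-signal filter and without the variance trend, with adjusted p of 0.0526 to 0.0816. Over lines DFR was not called between backgrounds (adjusted p = 0.1422).

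Other lists were thinly covered, and their counts stand beside 19.7 percent called and 2.65 percent set apart of all probe sets tested. Of 30 genes listed for aliphatic glucosinolates 3 were measured, and of these AOP3 was set apart as higher. AT2G31790 was called lower in the contrast of backgrounds at -0.44, and BCAT4, of methionine chain elongation, was not called at 0.09. Genes outside the list were not counted, so these values do not cover the pathway. Of 24 genes listed for natural variation between accessions, AOP3 alone was measured. Of 27 gibberellin genes 6 were measured and none was set apart, but a share of 2.65 percent need not give any among so few. AT1G22690, on that list, had 36.1 and 17.8 in the gibberellin-deficient mutant and 47.96 and 52.5 in Ler, against 94.0, 116, 95.9 and 74.6 in the others, and was called lower in the contrast of backgrounds (log2 -1.32, limma adjusted p = 0.00054). The gibberellin receptor gene GID1A differed by 0.33 (limma adjusted p = 0.0649).

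Markers of tissue makeup gave few values. For the shoot RCA, which encodes Rubisco activase, was the 1 gene measured of 11, at 1255, 1158, 961 and 913 in the Ler background, against 473, 1061, 1167 and 946 in the others, with overlap. Of 11 root markers 2 were measured, and the root-hair expansin genes EXPA18 and EXPA7 differed by 0.45 and -0.42 on the log2 scale, the first called (limma adjusted p = 0.0408) and the second not (0.0915). In whole seedlings a change in the share of a tissue and a change per cell cannot be told apart. No seed storage gene and no salicylate gene was tested.

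Gene families found by name were set apart at few members. Of 30 UDP-glycosyltransferases, which attach sugars to hormones and other small molecules, 8 were called higher and 5 lower in the contrast of backgrounds, beside 19.7 percent called and 2.65 percent set apart of all probe sets tested. UGT85A2 was set apart as higher, with 135, 125, 96.8 and 102, against 52.9, 66.1, 67.9 and 52.4. IAGLU, which glucosylates the auxin indole-3-acetic acid, was set apart as lower, with 74.4, 99.0, 71.7 and 83.2, against 187, 153, 143 and 165. Xyloglucan endotransglucosylases, which loosen and rebuild the cell wall, had 5 of 8 called higher and 1 lower, with a median of 0.35. Among expansins 3 of 12 were higher and 1 lower. Neither family had a member set apart, and with 8 and 12 members a share of 2.65 percent gives less than 1. None of 8 cytochromes P450 was called in that contrast.

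The genes set apart were spread over all 5 nuclear chromosomes, taken from gene order in the TAIR10.1 assembly. They were 36 of 1874 tested probe sets of a single gene on chromosome 1 (1.92 percent), 22 of 1070 on chromosome 2 (2.06 percent), 45 of 1483 on chromosome 3 (3.03 percent), 41 of 1079 on chromosome 4 (3.80 percent) and 46 of 1742 on chromosome 5 (2.64 percent). Of 190 such genes in the gene order, 34 stood in 16 runs of neighbouring measured genes. All members had 1 direction in 8 runs, and both directions occurred in the other 8. The longest runs had 3 genes.

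**Figure D4:**
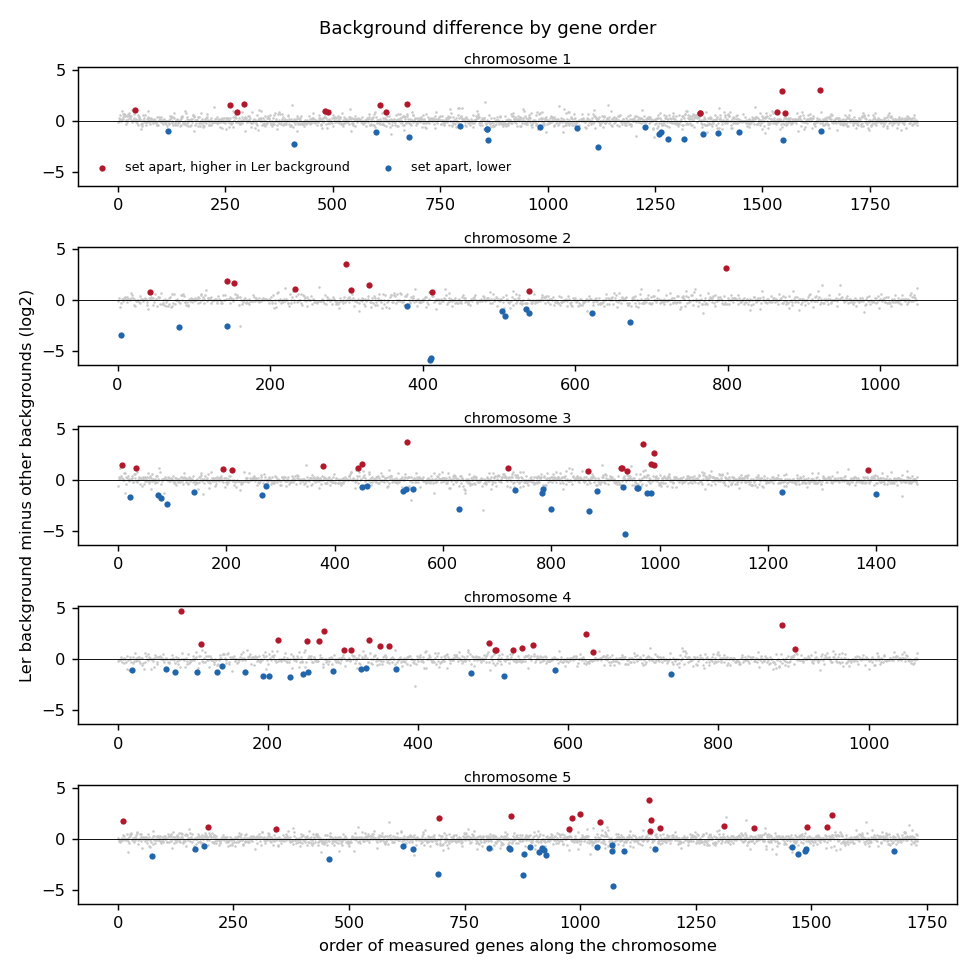
Difference between the Ler background and the others on the log2 scale (y axis) for measured genes in their order along chromosomes 1 to 5 (x axis, rank), with genes set apart as higher in red and lower in blue. Both colours occur on every chromosome, and the largest negative values on chromosome 2 belong to the neighbours AT2G25450 and AT2G25510.

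The most extreme run was AT2G25450, AT2G25510 and AT2G25520 on chromosome 2. Its first and second members were among the lowest in the Ler background, as given above. The third, AT2G25520, was higher, with 864, 864, 768 and 851 in the Ler background, against 486, 431, 476 and 455 in the others. On chromosome 1, AT1G31780, AT1G31850 and AT1G31910 were all lower, and AT1G31910 had 108, 124, 170 and 150, against 421, 526, 554 and 633. ALDH6B2 and PIP, neighbours among measured genes on chromosome 2, moved in opposite directions. The same held for JAL33 and its neighbour AT3G16370, which had 1059, 1040, 1112 and 1005, against 1970, 1978, 2056 and 1714.

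On chromosome 5, AT5G23830 was lower and its neighbour AT5G23840 higher, the second with 68.8, 102, 59.9 and 133 in the Ler background, against 21.9, 11.1, 22.0 and 25.9 in the others. AT5G38020 and AT5G38030 were both lower. AT5G47980 and AT5G48020 were both higher, the second by a smaller amount, with 108, 115, 106 and 113, against 65.0, 63.0, 65.7 and 68.9. On chromosome 3, AT3G47250 and AT3G47295 were both higher, the second with 81.9, 72.6, 67.8 and 59.6, against 31.0, 15.9, 27.0 and 23.1.

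Many of the 361 probe sets have no gene in the annotation. They are 153, 42.4 percent, against 44.3 percent of all tested, and their smallest differences reached 2.84 higher and -4.04 lower on the log2 scale. Probe sets that may cross-hybridise with related genes were 21 of the 361, 5.82 percent, against 3.43 percent of all tested.

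Within the set, the Ler-background lines were near to each other by construction. Their difference was called for 28 probe sets, 7.76 percent, against 10.7 percent of all tested. In 4 of the 28 all Ler-background arrays were below 24.2, and no order is read from these. Of the rest, the mutant was closer to the others in 6, among them SBT4.12, AT3G47250 and CSLC04, and further away in 18, among them AT5G47980 and DER2.1. The de-etiolated mutant and Ws differed for 12, 3.32 percent against 2.24 percent of all tested, which include DFR, AT4G14090, DI21 and AT3G28320. The median size of the difference was 0.22 between the Ler-background lines, 0.16 between the other lines and 1.19 between backgrounds. Over all probe sets tested these medians were 0.24, 0.20 and 0.20. The rule chose the set for a large difference between backgrounds.

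A last comparison asked whether the difference between backgrounds was the same in the mutants as in the wild types. The interaction, which is the gibberellin-deficient minus the de-etiolated mutant less Ler minus Ws, was called for 371 probe sets, 2.72 percent, with 164 positive and 207 negative. Of these, 8 were set apart by background (2.16 percent), a share near the 2.65 percent of all tested. The largest positive value was that of AT2G15560, with 151 and 152 in gibberellin-deficient seedlings and 12.1 and 3.93 in Ler, against 301 and 210 in de-etiolated seedlings and 182 and 218 in Ws. Ler alone was low there, and the interaction was 3.59 (SE 0.42, limma adjusted p = 0.0010). AT1G65500 was high in Ler alone, with 533 and 466, beside 25.5 and 11.4 in the mutant, 25.2 and 29.9 in de-etiolated seedlings and 49.9 and 62.6 in Ws.

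AT5G55450 had a like order, with 132 and 109 in the gibberellin-deficient mutant and 1339 and 624 in Ler, against 110 and 82.0 in de-etiolated seedlings and 83.3 and 83.9 in Ws. AT3G16670 instead was high in the de-etiolated mutant, with 121 and 99.4 in gibberellin-deficient seedlings and 69.1 and 24.4 in Ler, against 1340 and 1116 in de-etiolated seedlings and 68.0 and 61.9 in Ws. The serine carboxypeptidase-like gene scpl46 was low in the gibberellin-deficient mutant, with 6.25 and 4.01, beside 46.1 and 43.9 in Ler and 50.1, 47.6, 19.9 and 41.5 in the others. In these genes 1 line stood apart from the other 3, so the contrast of backgrounds called them without both Ler-background lines moving together.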

How the data were processed

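The deposited values are signal intensities, 1 for each array and probe set. The submitters' processing notes name MAS5 as the authors' tool; its settings are not given in the sources used here. All arrays share a 2%-trimmed mean of 100.01, the mark of a common scaling. Scanner files were not used here. Arrays were grouped by their labels.

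Of 22810 probe sets, 64 are array controls. The lowest 40% by mean log signal were left out (24.2 signal units), leaving 13648. Values were taken as log2(signal + 2.96), with a pseudocount equal to 10% of the median over gene-naming probe sets. limma 3.58.1 in R 4.3.3 fitted the 4 lines with a mean-variance trend (4 residual and 8.00 prior degrees of freedom, median SE 0.14 for backgrounds); p-values are two-sided, Benjamini-Hochberg adjusted over all probe sets tested. The number of arrays limits the precision. The platform annotation names 1 gene for 13513 probe sets and several for 503; 13436 matched a locus of the gene table (TAIR10.1).

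The lines, gene lists and tests were chosen with earlier results of these data known. The text names the 12 higher and 12 lower 1-gene probe sets with the largest smallest-of-4 difference, list members, and 6 interaction genes in each direction; the other genes with a symbol, the neighbours in gene order and the genes at low signal or at the limit of the rule were added after their values were seen. Alternatives changed the normalization, pseudocount, filter, variance trend, cross-hybridising probe sets, threshold, pairing, unit of replication, definition and arrays. Scripts were tested on simulated data. Figures used matplotlib 3.10.9.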

Additional observations from a re-analysis of the deposited data

Results flagged for a closer look

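Among 48 sets of 4 arrays (24 genes, each background), 2 held an array far from the other 3, and chance alone sets apart about 1 in 20 such sets. AT1G70880 had a signal of 3.49 on the second de-etiolated array, beside 15.1, 15.3 and 16.6 on the others of its side. AT3G44430 had 348 on the first de-etiolated array, beside 190, 198 and 188.

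In 14 named genes the difference between backgrounds was itself different between the mutants and the wild types by the limma interaction (adjusted p under 0.05). Of those set apart, AT5G45500 had an interaction of -1.98 (-5.59 between mutants, -3.62 between wild types) and DFR 1.79 (3.31 and 1.52). All 4 Ler-background arrays of AT5G45500 are below the low-signal limit, and its call was lost without any 1 array other than the second Ler array, with quantile normalization, the larger pseudocount, no filter or no variance trend (adjusted p of 0.0546 to 0.1697). With a positive interaction, the difference between mutants and then between wild types was -0.72 and -4.31 for AT2G15560 (3.59), 2.84 and -0.31 for AT2G19970 (3.15), 1.95 and -0.89 for AT2G23540 (2.84), 1.296 and -1.301 for AT1G33790 (2.60), 1.62 and -0.82 for AT4G38080 (2.44), and 1.74 and -0.67 for AT1G74460 (2.41). With a negative interaction it was -3.44 and -0.61 for AT3G16670 (-2.83), 0.33 and 3.41 for AT5G55450 (-3.08), -2.69 and 0.59 for scpl46 (-3.28), -2.82 and 0.68 for AT5G24210 (-3.50), -0.59 and 3.09 for AT1G65500 (-3.68), and -3.54 and 0.52 for AT5G43450 (-4.06). The call of AT5G43450 was lost without the second de-etiolated array or either gibberellin-deficient array, with the larger pseudocount, no filter or no variance trend (adjusted p of 0.0585 to 0.0765).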

How the results depend on the processing

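None of the results changed direction under any alternative run. The count of probe sets called between backgrounds (2695) became 1453 at a threshold of 0.01, 62 over line means and 490 with line as a random block, and leaving out each array gave 1898 to 2667. The count set apart (361) became 179 at a threshold of 0.01 and 178 with no overlap and at least 2-fold differences in place of a test, of which 168 were shared. Leaving out each array gave 199 to 316: it was 199 without the second Ler array, 208 without the first Ws array and 231 without the second, and 133 probe sets (65 higher, 68 lower) were set apart in every such fit. The interaction count (371) became 107 at a threshold of 0.01, 179 with no filter, 170 without the variance trend and 151 to 439 without 1 array: 151 without the first Ler array, 161 and 174 without the first and second gibberellin-deficient array, and 189 without the first Ws array. The array letters of the titles pair the arrays weakly or not at all (correlations of -0.03 to 0.14). With the letter as a replicate block the 3 counts were higher, at 2816, 394 and 469. Of the 24 genes, 21 stayed set apart in every fit without 1 array. AT1G70880 did not without the first Ws or first Ler array, AT4G26460 without the first gibberellin-deficient array, and AT1G52100 without either Ws array, the second de-etiolated or the first Ler array. Of 54 named genes, 30 were not called over line means, and with the random block ISU1 (adjusted p = 0.0641), SECE1 and ALDH11A3 were not. The cause of these changes was not tested. Dim signals, the number of arrays and 2 lines a side limit every count.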
